A study of Homo sapiens with 9 samples.

Results

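The genes described here carry glucose into the cell and through the upper steps of glycolysis. They are 9 genes in 3 roles: the glucose transporters SLC2A1 and SLC2A3, the enzymes HK1, HK2 and GPI that phosphorylate and isomerise glucose, and the phosphofructokinase step with its regulators, PFKL, PFKP, PFKFB3 and PFKFB4. HIF-1α binding was read at each gene from a fixed window on hg19, 60 to 170 kb long and 950 kb in all, and a binding site was counted when the summit of a called peak lay inside the window. The windows held 31 of the 9420 regions that the peak lists of the whole series formed, where a region joins the called intervals of all lists that share at least 1 bp.

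Chromatin immunoprecipitation with sequencing (ChIP-seq) against HIF-1α was done in the human neuroblastoma line SK-N-BE(2), known for amplified MYCN. Cells were held for 48 hours at 1% oxygen (hypoxia, 3 libraries) or at 21% oxygen (normoxia, 3 libraries), and 3 input libraries came from cells at 21% oxygen. All groups share the same cell line and the same culture medium, with serum, and the labels name no genetic change. The labels do not say whether libraries of a group are separate cultures; p-values thus cover only library-to-library spread, possibly technical.

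HIF-1α is the oxygen-sensitive subunit of the transcription factor HIF-1. Prolyl hydroxylation marks it for destruction when oxygen is present, and in low oxygen it pairs with ARNT and binds DNA at short sites with the core ACGTG or GCGTG. Genes of glucose uptake and glycolysis are among its best known targets.

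The peak lists differed in length and in construction. They held 1408, 5833 and 7619 intervals in hypoxia 1, 2 and 3, against 75, 32 and 109 in normoxia 1, 2 and 3. Depth, measured as background reads per kb, was 5.31 to 6.62 in hypoxia and 6.02 to 6.69 in normoxia. Reads had been extended, as inferred from the shortest interval of each list, to 155 and 167 bp in hypoxia 2 and 3, but to 46 to 48 bp in hypoxia 1 and the normoxia libraries. Hypoxia 2 and 3 therefore stand apart. The genome-wide background at a summit was 0.318, 0.92 and 0.886 reads in hypoxia 1, 2 and 3, and 0.294 in normoxia 3. Neither the reads at a summit nor the fold over local background is on 1 scale across lists. Reads and folds below describe a site within its own list, unless reads are scaled. As a check of the cell line, the 84 intervals of hypoxia 3 between 14 and 18 Mb of chromosome 2, the band of MYCN, had a median local background 146 times the genome-wide value.

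HIF-1α was called in 8 of the 9 gene windows in at least 2 hypoxia libraries, and in 7 of the 9 in all 3. A window can hold more than its named gene. No site inside a window was placed relative to a gene start or assigned to a gene. SLC2A3 was the exception, with no call inside its window in any library. The windows held 8, 26 and 29 intervals in hypoxia 1, 2 and 3, against 0, 0 and 2 in normoxia 1, 2 and 3. At least 2 hypoxia libraries called 23 of the 31 regions (74.2%), while over all regions with a hypoxia call the share was 44.0%. All 3 hypoxia libraries called 8 of the 31 (25.8%), against 11.5% of all such regions. Calls in all 3 hypoxia libraries and in no normoxia library stood at 6 of the 31 regions and at 10.7% of the 9420. The remaining 15 of the 23 were called in hypoxia 2 and hypoxia 3 only, so the count of 23 rests on those libraries and was 8 without hypoxia 2 and 8 without hypoxia 3.

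Set against the genome cut into tiles of 100 kb, 10.3% of 30908 tiles held a region called in at least 2 hypoxia libraries and 3.19% held a region called in all 3. The windows differ in length from the tiles and all hold a gene, so the comparison is a description only. In 6 of the 9 windows every hypoxia library had more intervals than every normoxia library, a separation seen in 3.04% of tiles. With 3 against 3 libraries the two-sided exact permutation test cannot go below p = 0.1, which these 6 genes reached. The p-values per gene are unadjusted. The separation depended on the threshold. SLC2A1 and HK1 lost it at a −log10 q of at least 5, and also at a fold of at least 6. In both windows the only hypoxia 1 interval fell below each of these cuts. GPI gained the separation at that −log10 q minimum. With the best 32 intervals of each list, only HK2 and GPI had it. Only hypoxia 2 and 3 had the long extension. The lowest −log10 p of any call was 5.3, 4.43 and 4.23 in hypoxia 1, 2 and 3. In normoxia 1, 2 and 3 it was higher, at 6.18, 7.15 and 6.37. Interval counts, their SD and these p-values thus mix oxygen with the construction and the calling cut of the lists. The part of each was not tested.

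**Figure D1:**
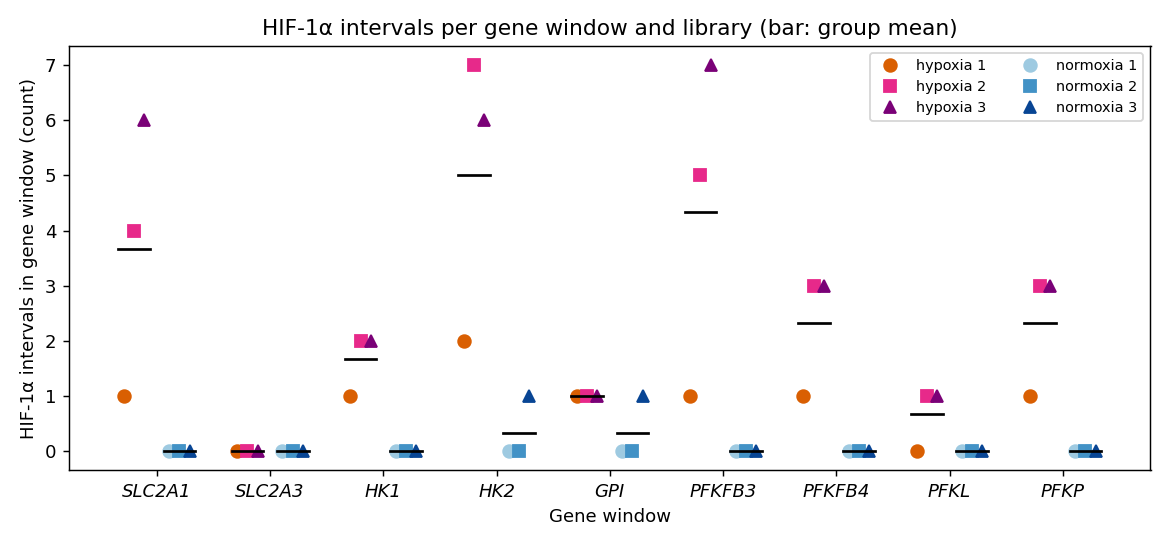
Number of HIF-1α intervals (vertical axis) in each gene window (horizontal axis), 1 point per library, hypoxia left and normoxia right of each gene, with the group mean as a bar. Normoxia points lie at 0 except for 1 interval each at HK2 and GPI in normoxia 3, and SLC2A3 is at 0 in all 6 libraries.

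SLC2A1 encodes GLUT1, the transporter that gives most cells their basal glucose uptake. Its window held 1, 4 and 6 intervals in hypoxia 1, 2 and 3 and 0 in every normoxia library, a mean of 3.67 ± 2.52 against 0 (SD, n = 3 each; exact permutation p = 0.1). The sites formed a cluster of 3 regions on chromosome 1. The first, at 43423679 to 43424139, had folds of 19.9 and 22.8 in hypoxia 2 and 3 and no call in hypoxia 1. The second, with its hypoxia 3 summit 708 bp away at 43424339 to 43424915, had folds of 5.73 and 15.1 in the same libraries.

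The third, at 43428173 to 43428732 and 4.45 kb from the first, was the SLC2A1 region that all hypoxia libraries called. Its fold was 4.34, 19.7 and 18.6 in hypoxia 1, 2 and 3. In hypoxia 1 that call was weak, with 7 reads at the summit over a local background 2.65 times the genome-wide value, and 89% of that list's intervals ranked as high or higher. A weaker region 25.9 kb from the first was called in hypoxia 2 and 3 with folds of 5.21 and 5.3, and 2 further regions were called in hypoxia 3 alone with folds of 5.21 and 5.72.

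SLC2A3 encodes GLUT3, a transporter of high glucose affinity that is typical of neurons. Its window had 0 intervals in all 6 libraries. A site lay just past the window edge, 13.4 kb away at chromosome 12: 8122972 to 8123829, and was chosen after its values were seen, so it is not counted among the 31. Its fold was 25.5, 54.6 and 84.7 in hypoxia 1, 2 and 3, which ranked 13, 58 and 19 in those lists, and 6.96 in normoxia 3, with no call in normoxia 1 or normoxia 2. Its hypoxia summits fell within 20 bp of each other. In gene order SLC2A3 lies between SLC2A14 and FOXJ2, and a distal hypoxia element upstream of SLC2A3 has been described in endothelial cells. Which gene the site serves cannot be read from peak lists.

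HK1 and HK2 encode hexokinases, which phosphorylate glucose and so trap it in the cell; HK1 is the constitutive form and HK2 the form known to be induced in tumours. HK1 had 1, 2 and 2 intervals in hypoxia 1, 2 and 3 and 0 in every normoxia library, a mean of 1.67 ± 0.577 against 0 (SD, n = 3 each; exact permutation p = 0.1). Its main region, at chromosome 10: 71077926 to 71078666, had folds of 5.97, 41.4 and 47.2 in hypoxia 1, 2 and 3. It stood in the top 54.5% of the hypoxia 1 list but in the top 1.7% and 1.19% of the hypoxia 2 and 3 lists. Behind the hypoxia 1 call stood 10 reads over a local background 2.65 times the genome-wide value, whereas that background was 1.01 and 1 times it in hypoxia 2 and 3. The part of background or extension in the low rank in hypoxia 1 was not tested. The second HK1 intervals of hypoxia 2 and 3 were different regions, each called in 1 list. That of hypoxia 2, at 71019379 to 71019533, had a fold of 5.73. That of hypoxia 3, at 71079191 to 71079500, had a fold of 3.6.

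HK2 had the most widely spread sites of the group. Its window held 2, 7 and 6 intervals in hypoxia 1, 2 and 3, against 0, 0 and 1 in normoxia 1, 2 and 3, a mean of 5 ± 2.65 against 0.333 ± 0.577 (SD, n = 3 each; exact permutation p = 0.1). The leading region lay at chromosome 2: 75005297 to 75006330. Hypoxia 2 and 3 had the long extension, so their reads are not on the scale of the other lists. The region had 47, 193 and 169 reads at its summit in hypoxia 1, 2 and 3, and 7 reads in normoxia 3. Its fold was 30.6, 74.5 and 90.1 in hypoxia 1, 2 and 3, ranking 5, 23 and 14 in those lists, and 6.18 in normoxia 3, ranking 71 of 109. It was thus among the strongest sites of each hypoxia list and a low-ranking site of the normoxia 3 list. The summits of hypoxia 1, 2 and 3 fell at 75005860, 75005838 and 75005839, and that of normoxia 3 at 75005861.

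A further region called in all hypoxia libraries lay 55.1 kb along the chromosome, at 75060546 to 75061462. It had folds of 12.3, 26.5 and 20.3 in hypoxia 1, 2 and 3. No normoxia library called it. Between and beyond these sites, hypoxia 2 and 3 shared 3 regions with folds from 4.43 to 8.84, at 38, 38.4 and 83.9 kb from the leading summit, and 2 were called in a single library. HK2 lies between SEMA4F and POLE4 in gene order. No hg19 annotation was used, so the distance from a site to the start of HK2 is not given.

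The promoters of HK2 show what a HIF core looks like in sequence. RefSeq (GRCh38.p14) gives HK2 2 transcription starts, and the 250 bases before each are printed 5′ to 3′ in lower case, with every ACGTG or GCGTG on either strand in capitals. These coordinates are GRCh38 and were not placed on hg19, so no called interval is assigned to these bases.
HK2, chr2:74833877-74834126, forward strand: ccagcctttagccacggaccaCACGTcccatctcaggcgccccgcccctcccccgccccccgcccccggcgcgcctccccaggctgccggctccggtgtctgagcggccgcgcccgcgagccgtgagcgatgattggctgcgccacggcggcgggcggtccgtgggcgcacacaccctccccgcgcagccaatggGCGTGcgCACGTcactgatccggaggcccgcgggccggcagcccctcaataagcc
HK2, chr2:74834920-74835169, forward strand: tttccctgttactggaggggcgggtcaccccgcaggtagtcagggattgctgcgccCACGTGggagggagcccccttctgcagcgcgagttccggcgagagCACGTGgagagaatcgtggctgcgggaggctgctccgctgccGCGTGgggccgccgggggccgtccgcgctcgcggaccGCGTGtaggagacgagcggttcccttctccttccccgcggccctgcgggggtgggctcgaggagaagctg
The first held 3 core matches and the second 6, counting each strand, so that the palindrome CACGTG counts once per strand. The second held 2 such palindromes. Over all 35116 promoters of that table, 43.2% held at least 1 core match in the 250 bases, 3.22% held at least 4 and 6.34% held CACGTG. The median share of G and C bases was 58% over these promoters, against 76.8% and 71.6% in the first and second of HK2. These shares were not matched for base composition. A match is a description of the letters and not a binding site.

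GPI encodes glucose phosphate isomerase, which converts the product of hexokinase into the substrate of phosphofructokinase. It had a single site, called in 4 libraries. This site lay at chromosome 19: 34849923 to 34850743. As at HK2, the reads of hypoxia 2 and 3 are not on the scale of the other lists. The region had 61, 195 and 219 reads at its summit in hypoxia 1, 2 and 3, and 9 reads in normoxia 3. Its fold was 33.6, 60.5 and 83.8 in hypoxia 1, 2 and 3, ranking 4, 43 and 21 in those lists, and 6.5 in normoxia 3, ranking 68 of 109. Since each hypoxia library had 1 interval and normoxia 3 also had 1, the counts of intervals overlapped between groups, 1 ± 0 against 0.333 ± 0.577 (SD, n = 3 each; exact permutation p = 0.4). A count of intervals does not carry the size of the signal. The hypoxia summits fell within 25 bp. The GPI promoter in the same table held 1 core match, an ACGTG.
GPI, chr19:34364742-34364991, forward strand: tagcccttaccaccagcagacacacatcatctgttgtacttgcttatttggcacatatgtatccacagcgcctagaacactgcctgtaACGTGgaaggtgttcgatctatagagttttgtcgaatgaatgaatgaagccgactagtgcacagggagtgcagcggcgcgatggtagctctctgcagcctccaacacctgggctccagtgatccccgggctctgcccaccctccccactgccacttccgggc

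PFKL and PFKP encode the liver and platelet forms of phosphofructokinase, the main control point of glycolysis. PFKL had a single region, at chromosome 21: 45720203 to 45720484, called in hypoxia 2 and 3 with folds of 14.6 and 12.7 and in no other library. Its counts of 0, 1 and 1 in hypoxia and 0 throughout normoxia overlapped (mean 0.667 ± 0.577 against 0, SD, n = 3 each; exact permutation p = 0.4). Both summits fell within 9 bp.

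PFKP had 1, 3 and 3 intervals in hypoxia 1, 2 and 3 and 0 in every normoxia library, a mean of 2.33 ± 1.15 against 0 (SD, n = 3 each; exact permutation p = 0.1). Its leading region, at chromosome 10: 3114765 to 3115351, had folds of 7.95, 25.9 and 29.2 in hypoxia 1, 2 and 3. A region 3.88 kb away had folds of 8.02 and 12.7 in hypoxia 2 and 3, and another, 54.3 kb away, had folds of 8.02 and 8.48. PFKP thus had sites in all hypoxia libraries, and PFKL only in those with the long extension; a difference between the genes was not tested.

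PFKFB3 and PFKFB4 encode bifunctional enzymes that make and degrade the small molecule that activates phosphofructokinase. PFKFB3, whose kinase activity far exceeds its phosphatase activity, had 1, 5 and 7 intervals in hypoxia 1, 2 and 3 and 0 in every normoxia library, a mean of 4.33 ± 3.06 against 0 (SD, n = 3 each; exact permutation p = 0.1). The leading region, at chromosome 10: 6243479 to 6244021, had 20, 89 and 104 reads at its summit in hypoxia 1, 2 and 3. Its fold was 14.5, 46.9 and 55.7, ranking 91, 82 and 62 in those lists. It was flanked by 3 regions called in hypoxia 2 and 3, with hypoxia 3 summits 0.45, 0.553 and 1.2 kb away and folds from 4.22 to 12.5. The 4 regions together form a cluster around the leading site. They count as 4 because only intervals that share at least 1 bp were joined. Whether they are separate sites or parts of 1 broad peak was not tested, and the same holds for close regions at SLC2A1 and HK2. Another region of those libraries lay 37.7 kb away with folds of 5.35 and 7.06.

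The RefSeq table gives PFKFB3 2 starts, and the start that lies further along the gene is shown because its promoter held the palindrome CACGTG, while the other held a single GCGTG.
PFKFB3, chr10:6202682-6202931, forward strand: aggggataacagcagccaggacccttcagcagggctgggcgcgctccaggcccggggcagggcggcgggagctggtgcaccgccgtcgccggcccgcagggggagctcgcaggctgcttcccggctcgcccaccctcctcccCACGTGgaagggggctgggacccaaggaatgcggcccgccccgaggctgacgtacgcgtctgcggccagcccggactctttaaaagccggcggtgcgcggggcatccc
For contrast, the SLC2A1 promoter of the same table held no core match in its 250 bases, although 3 regions stood within 4.45 kb of each other in its window.
SLC2A1, chr1:42958869-42959118, reverse strand: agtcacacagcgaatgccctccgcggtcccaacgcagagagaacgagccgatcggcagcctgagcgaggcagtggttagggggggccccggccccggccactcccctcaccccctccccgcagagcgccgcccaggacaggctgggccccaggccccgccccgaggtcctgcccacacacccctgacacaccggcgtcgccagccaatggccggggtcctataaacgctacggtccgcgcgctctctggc
No match says only that these letters are not in this stretch. In all, 8 of the 9 genes had a promoter in the table and 7 of the 8 held a core match in at least 1 promoter, counting 19 promoters of which 10 held a match, against 43.2% of all promoters in the table. HK1 alone has 7 of the 19, of which 1 held a match, and several promoters per gene raise the count of genes.

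PFKFB4, the testis-type paralogue that is known to be induced by hypoxia in many cells, had 1, 3 and 3 intervals in hypoxia 1, 2 and 3 and 0 in every normoxia library, a mean of 2.33 ± 1.15 against 0 (SD, n = 3 each; exact permutation p = 0.1). Its leading region, at chromosome 3: 48594416 to 48595180, had 19, 88 and 117 reads at the summit in hypoxia 1, 2 and 3. Its fold was 10.9, 26.1 and 47.3, ranking 189, 239 and 90. Weaker regions 1.03 and 50.6 kb away were called in hypoxia 2 and 3, each with folds of 5.21 and 6.36.

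**Figure D2:**
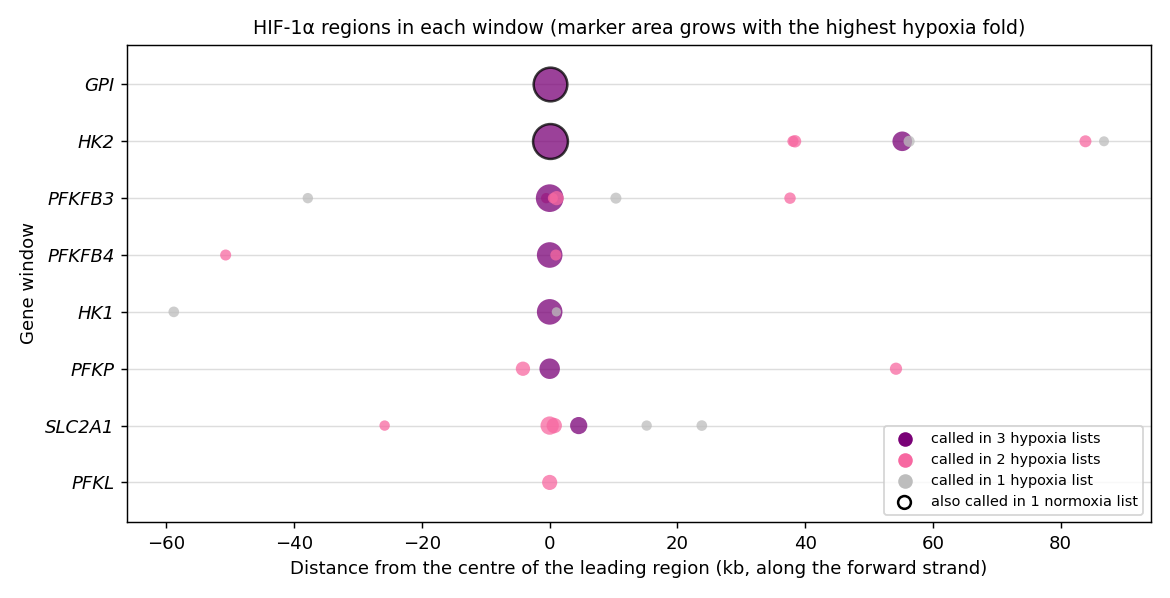
Regions with HIF-1α calls in each gene window (rows), placed by their distance in kb from the centre of the leading region, the one of best rank by fold in any hypoxia list. Marker area grows with the highest hypoxia fold, colour gives the number of hypoxia lists and a black ring marks a call in normoxia 3. HK2 has sites up to 86.8 kb from its leading region, whereas PFKFB3 and SLC2A1 have clusters at theirs and GPI and PFKL have a single site each.

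Ranked by the best place in any hypoxia list, the leading regions came in the order GPI, HK2, PFKFB3, PFKFB4, HK1, PFKP, SLC2A1 and PFKL. The lists differ in length, and the best places of GPI and HK2 came from hypoxia 1, the shortest hypoxia list. By share of the list, the best place of HK2 was the top 0.184% and that of GPI the top 0.276%, both in hypoxia 3. The neighbours GPI (4) and HK2 (5), and PFKFB4 (90) and HK1 (91), were next to each other in rank, and the order between them differed among libraries. HK2 had the higher fold of the first pair in hypoxia 2 and 3 and GPI in hypoxia 1. HK1 had the higher fold of the second pair in hypoxia 2 and PFKFB4 in hypoxia 1, while in hypoxia 3 the fold was 47.2 at HK1 and 47.3 at PFKFB4. The summits of a leading region fell within 8 to 68 bp across the hypoxia libraries that called it.

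The windows were not uniformly strong. Median fold over the intervals in the windows was 11.6, 8.02 and 8.48 in hypoxia 1, 2 and 3, against 6.07, 6.53 and 6.12 over each whole list. Of the 8, 26 and 29 intervals, 2, 2 and 3 lay in the top 1% of their list by fold and 4, 9 and 10 in the top 10%. The top 1% intervals were those of GPI and HK2, joined by PFKFB3 in hypoxia 3, and most of the remaining intervals in hypoxia 2 and 3 had under 20 reads at the summit. The median over all intervals in the windows was 16 and 15 reads in hypoxia 2 and 3. The median interval was 315.5, 310 and 387 bp long in hypoxia 1, 2 and 3, against 111, 246 and 259 bp over each whole list. The highest local background at any of these intervals was 2.65 times the genome-wide value.

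**Figure D3:**
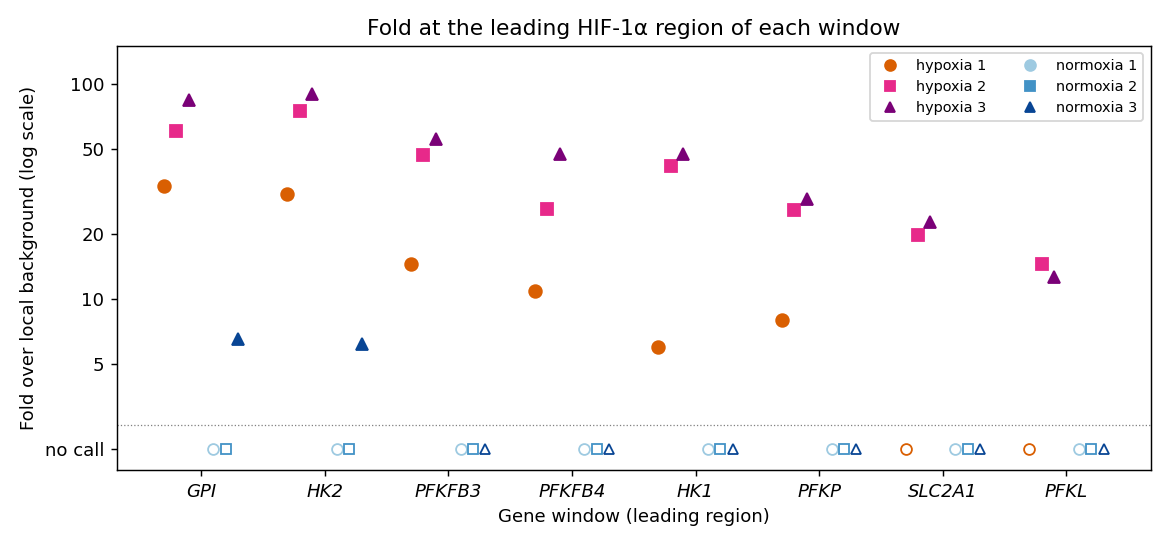
Fold over local background (log axis) at the leading region of each window, 1 point per library, hypoxia left and normoxia right; open points on the lowest line mark libraries with no call. GPI and HK2 have folds of 30.6 to 90.1 in hypoxia and 6.5 and 6.18 in normoxia 3, the only normoxia calls in these windows. Folds of hypoxia 2 and 3 are not on the scale of the other lists.

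In normoxia, 2 of the 9 windows had a call, both in normoxia 3. Over the genome 0.408% of tiles held a normoxia call, and 7.1% of regions shared by all 3 hypoxia libraries did, against 2 of the 8 such regions here. Of regions called in at least 2 hypoxia libraries 2.25% did, against 2 of the 23 here. A site without a call can still be bound, so the reads that a call would have needed were worked out for each normoxia library, first with the local background at the same multiple of the genome-wide one as in hypoxia 1, then with it at the genome-wide value. The multiple could be measured only at the normoxia 3 calls, where it differed from the one assumed: 1.78 in hypoxia 1 against 1 in normoxia 3 at HK2, and 2.65 in hypoxia 1 against 1.83 in normoxia 3 at GPI. The number needed is thus uncertain where there was no call, and at the genome-wide value it was 6 reads in each normoxia library. At HK2 the 47 reads of hypoxia 1, scaled to the background of normoxia 1, 2 and 3, came to 45.5, 41.8 and 43.5 reads, where a call needed 7 at the multiple of hypoxia 1. At GPI the 61 reads of hypoxia 1 came to 59.1, 54.3 and 56.5 reads, where a call needed 8, 9 and 8. With either background, as many scaled reads as in hypoxia 1 would have passed the threshold at both sites in normoxia 1 and normoxia 2.

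Hypoxia 1 and normoxia 3 had nearly the same extension and could be set side by side. Scaled hypoxia 1 reads were 6.21 times the normoxia 3 reads at HK2 and 6.27 times at GPI, a comparison of single libraries with no test. At PFKFB3, scaled hypoxia 1 reads were 2.54 to 3.23 times the number a normoxia call needed at the multiple of hypoxia 1, and 2.97 to 3.23 times at the genome-wide background. At PFKFB4 the ratio was 1.88 to 2.3 and 2.82 to 3.07 with these backgrounds, and at the other HK2 region 2.03 to 2.58 and 2.37 to 2.58. At HK1 it was 0.989 to 1.21 and 1.48 to 1.61, and at PFKP 1.27 to 1.61 and 1.48 to 1.61. At SLC2A1 it was 0.692 to 0.847 and 1.04 to 1.13, so whether the hypoxia 1 signal would have been called in normoxia depends on the background assumed. All 8 regions were taken because hypoxia 1 called them, so ratios near or above 1 follow in part from that choice.

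**Figure D4:**
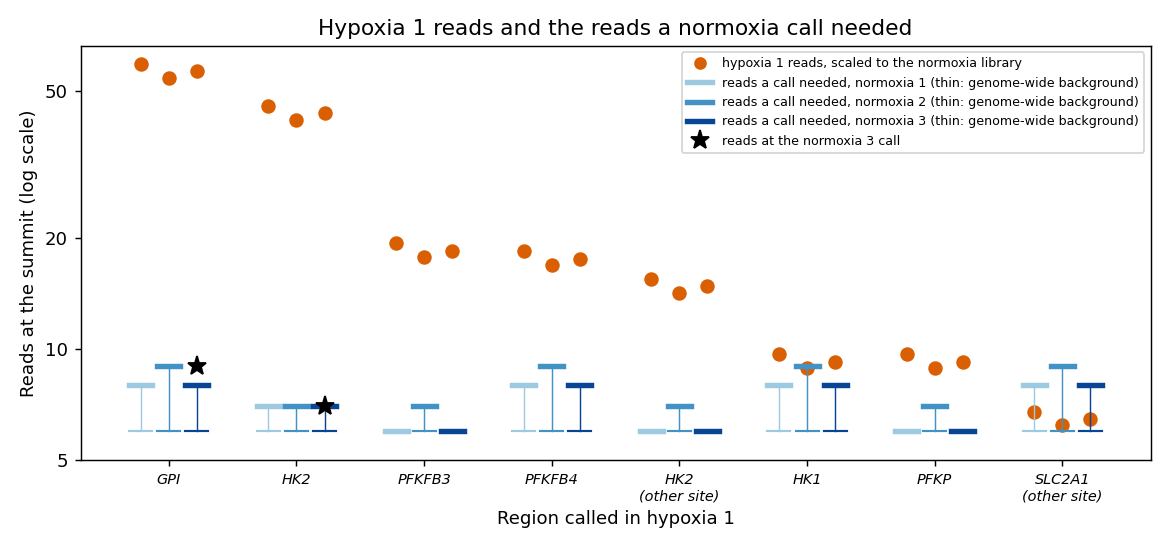
Reads at the summit (log axis) for the 8 regions called in hypoxia 1: circles give hypoxia 1 reads scaled to the background of normoxia 1, 2 and 3 from left to right, thick bars the reads a call needed there at the background multiple of hypoxia 1, thin bars those at the genome-wide background, and stars the reads at the normoxia 3 calls. Circles stand well above the bars at GPI and HK2, near the thick bars at HK1, and between the thick and the thin bars at SLC2A1.

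Other genes of the same families were mostly without calls. A list of 18 further hexose transporter, hexokinase, phosphofructokinase, bifunctional enzyme and fructose bisphosphatase genes, with windows set from general knowledge of hg19, held 4 regions in 1665 kb. Only FBP1, a fructose bisphosphatase of gluconeogenesis, had a region called in at least 2 hypoxia libraries, at chromosome 9: 97372438 to 97373036 with folds of 7.87 and 5.55 in hypoxia 2 and 3. None of the 18 had a region in all 3 hypoxia libraries or a call in normoxia, and 14 had no call at all. Per 100 kb of window, regions called in at least 2 hypoxia libraries numbered 2.42 at the 9 genes and 0.0601 at the 18 others, against 0.134 over the genome. PFKM, the muscle form of phosphofructokinase, SLC2A14, the neighbour of SLC2A3, and PFKFB2 were among the genes with no call. No test was run on this difference, since the 9 genes were chosen with results of these data known.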

How the data were processed

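HIF-1α ChIP-seq was analysed from 6 deposited peak lists, 3 from hypoxia and 3 from normoxia; groups and numbers come from the sample titles. Per the submitters' processing notes, the authors used BWA 0.7.17 and MACS2 on hg19, with 1 list per library; no source used here gives further versions or settings. The deposited fold is a ratio of summit reads to local background after 1 is added to each. It is thus smaller than the plain ratio, most of all where the background is low. The deposited −log10 p and −log10 q are the peak caller's, and the deposited score equals 10 times −log10 q cut to a whole number.

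The gene windows were given by a rule, and the members and lists were chosen with earlier results of these data known. An interval with several summits counted as 1, represented by its summit of smallest p. Whole reads and local background were recovered from fold and −log10 p within 0.001 for all 16463 summits (100%); the code was tested on simulated data. The smallest local background in a list served as its genome-wide value, and the shortest interval as the extension. Hypoxia 1 reads were scaled by the ratio of backgrounds, and a call was taken to need the lowest −log10 p of that normoxia list; the genome-wide background was added as an alternative after seeing the data. Counts were compared by two-sided exact permutation tests over libraries. All 9 genes are named. Of the 18 others, those with a region in at least 2 hypoxia lists are named by rule. PFKM, SLC2A14 and PFKFB2 are named outside that rule, as examples without a call. Alternatives covered thresholds, overlap, list length, pairing and each library left out; windows widened by 50 kb were added after seeing the data. Promoters came from RefSeq GRCh38.p14. Python 3.11.15, numpy 2.4.6, pandas 2.3.3, scipy 1.17.1 and matplotlib 3.10.9 were used.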

Additional observations from a re-analysis of the deposited data

How the results depend on the processing

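The count of 8 genes with a region in at least 2 hypoxia libraries stayed at 7 to 9 under every alternative run except the best 32 intervals of each list, where it was 2 (GPI and HK2). The count of 23 regions was 16 at a −log10 q of at least 5 and 14 at a fold of at least 6. It was 8 when all 3 hypoxia lists had to call, and 2 with the best 32 intervals. All of these are fewer by construction. In windows widened by 50 kb it was 27, more by construction. Leaving out 1 library gave 8 to 23 regions, 8 without hypoxia 2 and 8 without hypoxia 3. Genes called in normoxia, 2 in the main count, numbered 0 under a −log10 q minimum of 5 and 0 with the best 32 intervals. They numbered 0 when at least 2 normoxia lists had to call, and 3 in windows widened by 50 kb. Leaving out 1 library gave 0 to 2 such genes, 0 of them without normoxia 3. For the interval counts per gene, 110 of 117 values under alternatives kept their direction or stayed at 0; 6 fell to 0 with the best 32 intervals, and the SLC2A3 difference was 1 interval in windows widened by 50 kb, an alternative added after seeing the data. With the genome-wide background, also added after seeing the data, no ratio of scaled reads to reads needed was lower; 21 of 24 stayed within the 95% counting interval of the first value, and 4 moved from under 1 to above it, 3 at SLC2A1 and 1 at HK1. The exact permutation p could not fall below 0.1, so for genes already at 0.1 it could only stay or rise. Under a −log10 q minimum of 5 it rose to 0.4 at SLC2A1 and HK1, and likewise at a fold of at least 6. At GPI it went from 0.4 to 0.1 under the −log10 q minimum. A kept direction is thus not a kept separation of the groups. With same-numbered libraries as a replicate block the HK2 difference was 4.67 intervals (exact sign-flip permutation p = 0.25, the smallest that 3 pairs allow), equal to the unpaired difference by construction. Deviations of same-numbered libraries over regions correlated at 0.0835, 0.031 and −0.0126, which does not show pairing. Few reads limit each site: medians of 17.5, 16 and 15 reads stood behind the intervals of hypoxia 1, 2 and 3.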

Other observations

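Within 50 kb of the windows stood 10 further regions, of which 4 were called in at least 2 hypoxia libraries; they were looked up after the data were seen. Beside the SLC2A3 site, 1 of these was called in all 3 hypoxia libraries. It lay on the low side of the HK2 window at chromosome 2: 74967736 to 74968216, with folds of 7.33, 15.8 and 24.9 in hypoxia 1, 2 and 3 and no normoxia call. A region near SLC2A1, at chromosome 1: 43471318 to 43471847, had folds of 11.5 and 6.51 in hypoxia 2 and 3. A region near PFKL, at chromosome 21: 45667896 to 45668292, had folds of 4.55 and 9.54 in hypoxia 1 and 3. Which gene these regions belong to was not determined.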
